A study of Mus musculus with 3 samples.

Results

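The genes described here are 10 CREB transcription factors and coactivators, out of the 30559 genes counted in single nuclei of differentiated mouse neurospheres. They were chosen by name and not by a cut on any measured value, but with earlier results of these data known. They are the factors Creb1, Crem, Atf1, Creb5, Atf2, Atf7 and Creb3l2, and the CREB-regulated coactivators Crtc1, Crtc2 and Crtc3. CREB-family factors are basic leucine zipper proteins that bind the cAMP response element (CRE) as dimers. A rise in cAMP or calcium leads to phosphorylation of Creb1, Crem and Atf1 at a serine that is then bound by the KIX domain of CBP and p300, the paralogous lysine acetyltransferases (KAT3 proteins) whose genes were targeted in these cultures. The coactivators of the Crtc group stay in the cytoplasm while phosphorylated by salt-inducible kinases, enter the nucleus after dephosphorylation by calcineurin, and join Creb1 on the promoter. In the brain the pathway is known for its part in neuronal survival, activity-dependent transcription and the growth of progenitors.

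Neurospheres are floating clones grown from neural stem cells, here from the subventricular zone (SVZ) of newborn pups on a C57BL/6 background, and they were plated to form neurons and glia. The genotype labels read control, CBPf/f and p300f/f. The methods of the study describe lentiviruses that carried Cre fused to mCherry to recombine the floxed alleles (exon 7 of Crebbp, which leaves a truncated protein, and exon 9 of Ep300) or a red fluorescent protein in the control, while the labels give tamoxifen as the treatment of all 3 samples. Each condition is 1 library, made from a pool of about 15 cultures on day 15, with nuclei sorted for the red reporter, and the mouse line of the control cultures was not stated. No test between conditions was therefore possible, nuclei were not used as replicates, and all intervals below are 95% intervals that cover counting error only. The control library held 4884 nuclei, that of CBP-ablated cultures 3017 and that of p300-ablated cultures 4648, with 16312170, 12748336 and 18876682 unique molecular identifiers (UMIs). Between 1 and 7 barcodes were shared by any pair of libraries and none by all 3.

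The floxed genes were measured first. Crebbp stood at 335, 370 and 365 CPM (UMIs scaled to equal library totals) in the control, CBP-ablated and p300-ablated libraries, an order kept below, and Ep300 at 114, 136 and 115 CPM. Neither gene was lower in the library in which its exon was to be deleted, and since the counts cover the exons and introns of a whole gene, this level does not check the labels. Markers of astrocytes, oligodendrocytes, neurons and microglia were found in all 3 libraries, with none of the 8, 8, 7 and 8 markers at 0, whereas 2 or 3 of 5 endothelial markers were at 0 in each library. Nuclei in an astrocyte-like cluster came from the control library alone (1279 nuclei, 26.2% of that library). A cluster of 1 library may be that library and not a cell type, so values are given with and without it.

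The sequences upstream of 3 of the genes are shown because they hold the letters that CREB-family proteins bind. RefSeq promoter windows on GRCm38.p6, from 250 bases before to 50 bases after a transcription start, matched 8 of the 10 genes by symbol, with 2 start sites for Creb5. Crem and Crtc2 had no window in the table. The windows were searched on both strands for the full CRE, TGACGTCA, and for its core TGACG, which the full CRE also contains. The full CRE was in 1 of the 9 windows and the core in 3, against 1.79% and 20.8% of 32851 windows of the same length in the genome. The bases below lie upstream of any annotated exon of the gene, are written 5′ to 3′ on the strand of the gene, and carry the match in capitals. They are the upstream start of Creb5 (chr6:53287053-53287269, plus strand), with the CRE starting 45 bases before the RefSeq start, Creb3l2 (chr6:37442149-37442398, minus strand), with the core 196 bases before it, and Atf1 (chr15:100227609-100227818, plus strand), with the core 90 bases before it.
Creb5 upstream start: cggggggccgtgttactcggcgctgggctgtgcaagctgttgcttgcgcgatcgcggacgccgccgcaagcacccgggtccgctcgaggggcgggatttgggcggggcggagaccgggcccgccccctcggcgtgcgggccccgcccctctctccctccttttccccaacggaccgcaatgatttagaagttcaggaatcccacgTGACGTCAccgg
Creb3l2: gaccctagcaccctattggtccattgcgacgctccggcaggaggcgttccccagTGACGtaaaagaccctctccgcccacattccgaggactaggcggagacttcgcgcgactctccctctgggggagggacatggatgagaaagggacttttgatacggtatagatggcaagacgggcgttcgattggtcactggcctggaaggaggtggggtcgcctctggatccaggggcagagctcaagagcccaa
Atf1: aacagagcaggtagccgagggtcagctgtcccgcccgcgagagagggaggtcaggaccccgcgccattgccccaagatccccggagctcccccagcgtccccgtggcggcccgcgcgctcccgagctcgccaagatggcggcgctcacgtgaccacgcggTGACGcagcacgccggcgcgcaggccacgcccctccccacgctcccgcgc
These matches describe letters only, and no binding was measured. Creb5 and Creb3l2, both on chromosome 6, are the 2 genes of the group whose levels differed most between cell classes, as set out below. Atf1, which also has a match, differed by 2.14-fold only, and Crtc3, next in range at 3.22-fold, had no match. A link between the letters and the levels was not tested.

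In all, 9 of the 10 genes reached 100 UMIs when the libraries were summed. The exception was Atf7 (chr15:102525946-102625464), a relative of Atf2, with 7, 13 and 2 UMIs. The read-through gene Gm28047 overlaps 99.6% of Atf7 on the same strand and had 52 UMIs, and reads shared by overlapping genes could not be assigned to either, so nothing more is said of Atf7. Levels between genes were compared per kilobase of the annotated gene, since introns were counted. On that scale (CPM per kb, 3 libraries together) Atf2 was highest with 1.81, followed by Atf1 (1.47), Crtc3 (1.41), Creb1 (1.16), Creb3l2 (1.07), Crtc1 (0.948), Creb5 (0.705), Crtc2 (0.691) and Crem (0.458). Creb5 thus had the most UMIs of the group (13954) but ranked low per kilobase, with a gene of 413 kb against 9.96 kb for Crtc2.

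Across whole libraries, Creb1, Atf1 and Crtc1 had similar levels in all 3. Creb1, the founding member of the family, stood at 82.0, 83.1 and 85.1 CPM in control, CBP-ablated and p300-ablated, and Atf1, its close relative, at 50.02, 49.4 and 48.5 CPM. Crtc1, the coactivator best known from neurons, stood at 51.1, 56.6 and 55.4 CPM. For these 3 genes the counting intervals of all ratios between libraries held 0 on the log2 scale. Crtc2, known for its role in liver gluconeogenesis, was scarce at 5.76, 7.92 and 7.15 CPM, and its log2 ratio had a wide interval (0.46, 0.04 to 0.88, CBP-ablated over control).

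The other 5 genes, like Crtc2 in that comparison, differed between libraries by more than counting error. Creb3l2, a membrane-bound factor of the endoplasmic reticulum that is released by cleavage, stood at 101 CPM in control (95.8 to 106), 167 without CBP (160 to 174) and 112 without p300 (108 to 117), highest without CBP. Creb5, a relative of Atf2, stood at 227 CPM in control (220 to 234), 307 without CBP (298 to 317) and 336 without p300 (327 to 344), lowest in control. Crtc3, a coactivator studied in adipose tissue, stood at 130, 139 and 159 CPM, highest without p300. Atf2, a partner of Jun that is phosphorylated by stress kinases, stood at 130, 154 and 134 CPM, highest without CBP. Crem, which also encodes repressor isoforms, stood at 36.1, 30.5 and 31.6 CPM and was highest in control. The plot of levels by library shows that these differences were small beside the range of levels within the group.

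**Figure D1:**
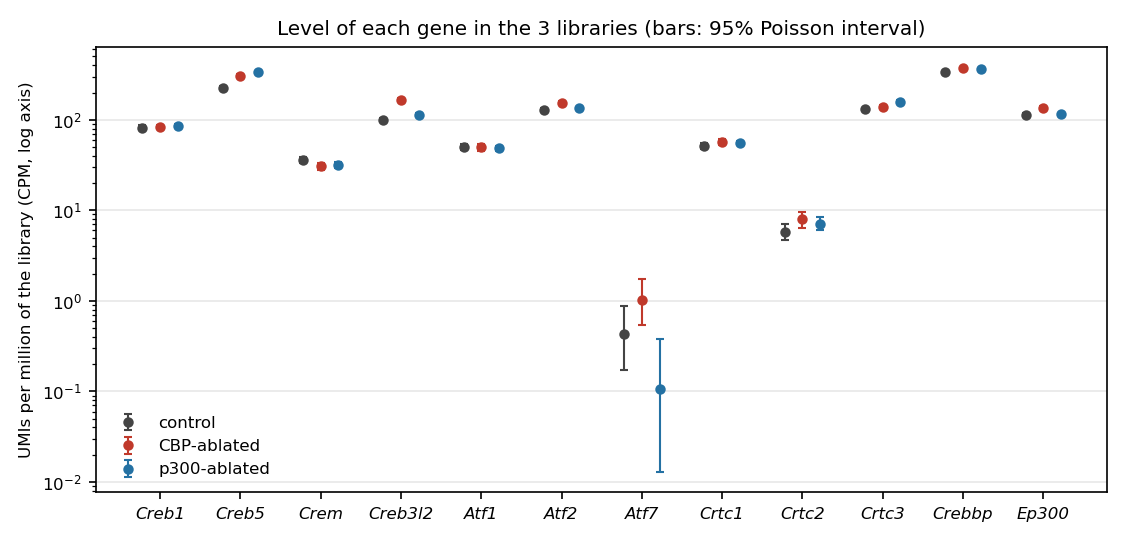
Level of the 10 genes and of the 2 floxed genes Crebbp and Ep300 in the control, CBP-ablated and p300-ablated libraries, in CPM on a log axis, with 95% Poisson intervals as bars. Creb3l2 stands apart in the CBP-ablated library (167 CPM against 101 and 112), Creb5 is lowest in control (227 CPM), and Atf7 lies near 1 CPM or below.

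A gene was counted as past 1.5-fold when its ratio between whole libraries exceeded that value and it had at least 100 UMIs in both libraries together, which is a description of these libraries and not a test. Creb3l2 was the single gene of the 9 past 1.5-fold in the CBP-ablated over the control library, with a log2 ratio of 0.73 (0.64 to 0.83). Of all 11883 genes compared, 7.9% were past 1.5-fold higher and 9.97% lower (17.9% in all). The median of the 9 log2 ratios was 0.15, against 0.06 over all genes. Creb5 (0.44, 0.37 to 0.50) and Atf2 (0.25, 0.16 to 0.34) were higher by less, and Crem was lower (−0.24, −0.43 to −0.06).

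In the p300-ablated over the control library 0 of the 9 genes were past 1.5-fold, where 4.37% of 12247 genes were higher and 7.77% lower. Creb5 came closest with a log2 ratio of 0.57 (0.51 to 0.62), followed by Crtc3 (0.28, 0.20 to 0.36) and Creb3l2 (0.16, 0.07 to 0.25), the last of which did not keep its direction without the astrocyte-like class (below). The median of the 9 log2 ratios was 0.12, against −0.03 over all genes. Both comparisons use the same control library and so are not independent. The comparison of the CBP-ablated with the p300-ablated library does not use it, and there 0 of 9 were past 1.5-fold (8.26% of 11956 genes were higher and 8.03% lower, 16.3% in all, against 12.1% without p300). Its largest log2 ratio was again that of Creb3l2 (0.57, 0.49 to 0.66), while Creb5 (−0.13, −0.19 to −0.07) and Crtc3 (−0.19, −0.28 to −0.11) were lower without CBP than without p300.

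The make-up of the libraries moved with these ratios, and in sums over a library more nuclei of a type and more RNA per nucleus cannot be told apart. Nuclei resembling oligodendrocytes made up 3.28%, 16.1% and 4.15% of the 3 libraries, committed oligodendrocyte precursor-like nuclei 8.09%, 20.2% and 5.08%, and NPC/OPC-like nuclei 21.1%, 11.2% and 38.2%. NPC/OPC stands for neural and oligodendrocyte progenitor cells. Ratios were therefore recomputed without the astrocyte-like class, and then with each class weighted as in control. The weighting sets the shares of the classes equal but not the mix of nuclei within a class, which differed at the finer clustering below. For Creb3l2 in the CBP-ablated over the control library the log2 ratio went from 0.73 to 0.53 (0.44 to 0.63) and 0.33 (0.22 to 0.45). In the p300-ablated over the control library the log2 ratio of Creb3l2 went from 0.16 to −0.04 (−0.14 to 0.06) and 0.06 (−0.04 to 0.16), and between the ablated libraries its weighted value was 0.27 (0.16 to 0.39) in place of 0.57. For Creb5 without CBP it went from 0.44 to 0.15 (0.08 to 0.21) and −0.09 (−0.18 to 0.00), a change of sign. In the p300-ablated library the log2 ratio of Creb5 went from 0.57 to 0.27 and 0.13 (0.07 to 0.20). Crem, lower in both ablated libraries, came to −0.06 and 0.04 after weighting, with intervals that held 0. The log2 ratio of Crtc3 without p300 moved little, from 0.28 to 0.27 and 0.21 (0.12 to 0.31), and that of Atf2 without CBP went from 0.25 to 0.24 and 0.18 (0.05 to 0.30). The plot of ratios between libraries sets the 3 versions side by side.

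**Figure D2:**
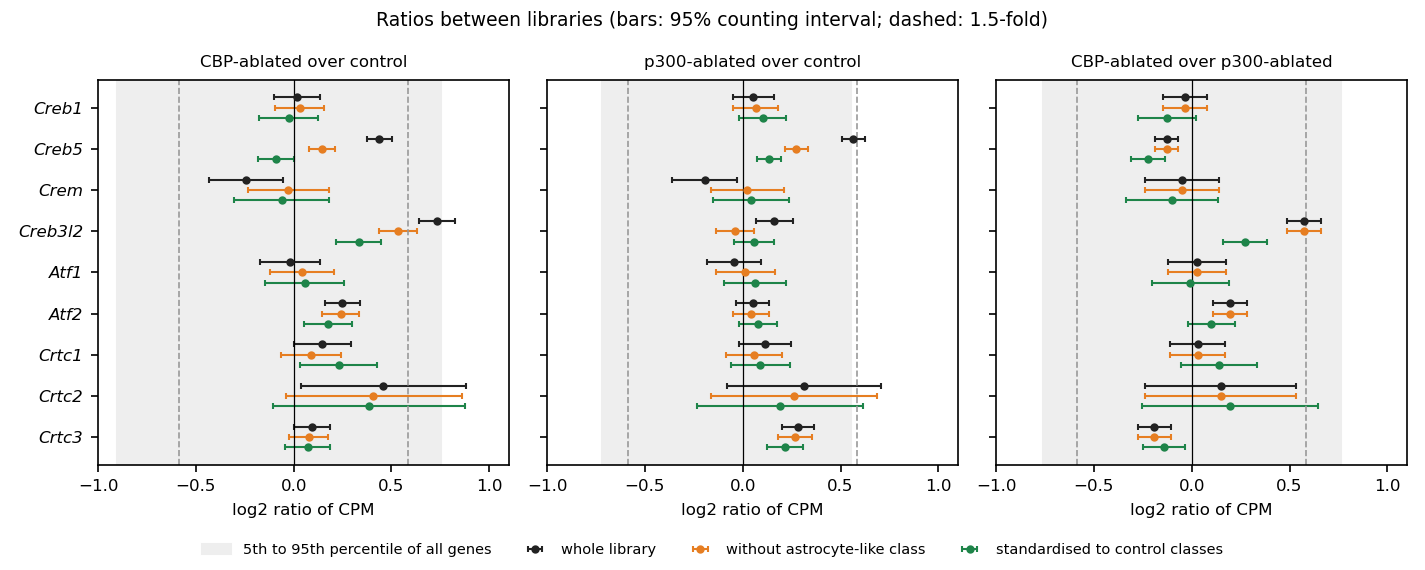
Log2 ratio of CPM between libraries for the 9 genes with at least 100 UMIs, for whole libraries, without the astrocyte-like class and with classes weighted as in control, with 95% counting intervals. The grey band spans the 5th to 95th percentile of all genes and dashed lines mark 1.5-fold. The Creb5 points move toward 0 from 0.44 and 0.57, while Creb3l2 in the CBP-ablated library stays above 0 at 0.33.

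The nuclei fell into 13 clusters, of which 10 were named from marker genes and held 90.1% of nuclei. The names end in "-like" since they rest on markers. RGC/PSC is the name that the study uses for radial glial and stem cells, and the cluster-5-like class carries the markers Kcnj6, Nell2 and Cacng4 that the study took for immature neurons. Creb5 was the only gene of the group among the 1617 variable genes that defined the clusters. Leaving it out changed its difference between committed precursor-like and NPC/OPC-like nuclei little (a log2 difference of −2.84 in place of −2.87). The cluster-5-like class, however, then held 1225 nuclei in place of 727. The heat map of classes shows a graded range of variation. The highest class exceeded the lowest by 1.43-fold for Atf2, 1.57-fold for Creb1, 2.06-fold for Crtc2 and 2.14-fold for Atf1. The values were 2.21-fold for Crtc1, 2.54-fold for Crem and 3.22-fold for Crtc3. Creb3l2 and Creb5 had the widest ranges, 10.3- and 18.4-fold.

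**Figure D3:**
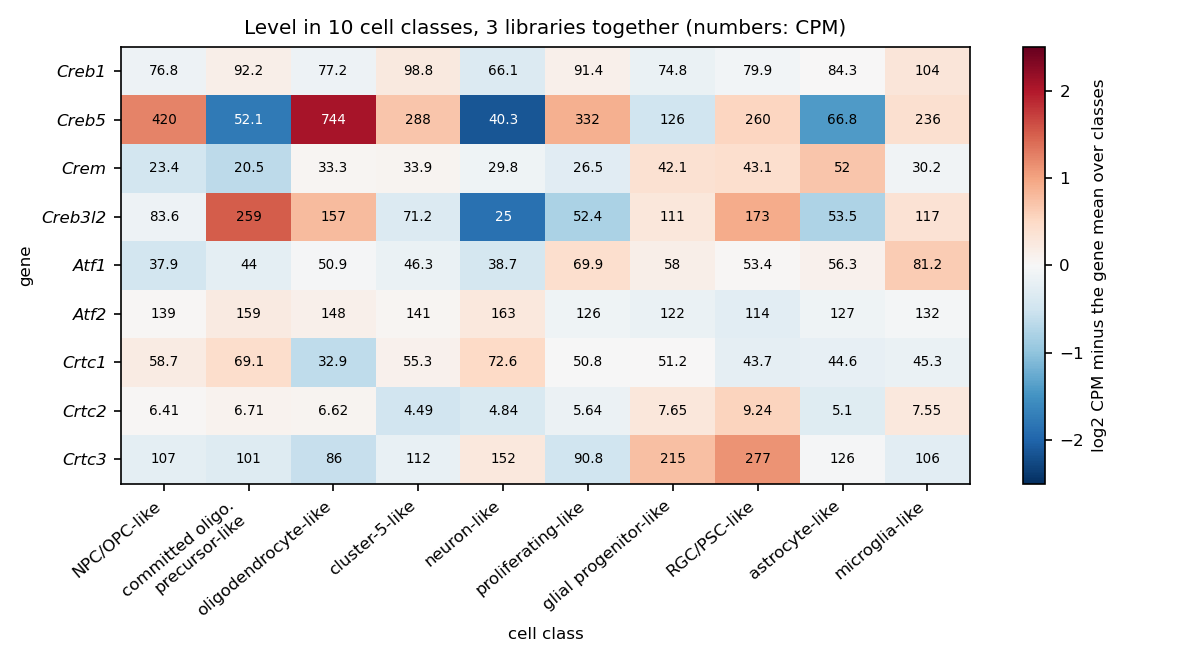
Level of 9 genes in the 10 named cell classes of the 3 libraries together. Numbers are CPM within the class, and colour is the log2 CPM minus the mean of that gene over the classes. Creb5 ranges from 744 CPM in oligodendrocyte-like to 40.3 CPM in neuron-like nuclei, while Creb1 and Atf2 are nearly level.

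Creb5 was high, low and high again along the oligodendrocyte classes. In NPC/OPC-like nuclei, which carry Pdgfra and Cspg4, it stood at 381, 358 and 451 CPM. In nuclei like committed oligodendrocyte precursors, which carry Enpp6, Bcas1 and Gpr17, it stood at 40.1, 42.1 and 93.4 CPM. In oligodendrocyte-like nuclei, which carry Mog, Mbp and Mag, it stood at 756, 791 and 618 CPM. The intervals of the 3 classes did not overlap in any library. The precursors were below NPC/OPC-like nuclei by a mean log2 difference of −2.87 ± 0.52 (SD over 3 libraries), and oligodendrocyte-like nuclei were above the precursors by 3.73 ± 0.87.

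At a finer clustering (resolution 1.2) each of these classes was split, and Creb5 differed within them. Creb5 was among the variable genes behind this clustering too, so nuclei could be split in part by their Creb5 counts. The finer clustering was not repeated without Creb5, and the part of Creb5 in these splits was not tested. NPC/OPC-like nuclei split into clusters of 506 and 309 CPM of Creb5. Precursor-like nuclei split into a cluster led by Arhgap24, then Bmp4, with 68.7 CPM and an Enpp6-rich cluster. The latter had more Enpp6 (967 against 252 CPM of Enpp6), and in it Creb5 was at its lowest, 30.3 CPM. Oligodendrocyte-like nuclei split into clusters of 603 and 1006 CPM, of which the one with less Creb5 had more of the myelin gene Mog (975 against 534 CPM of Mog). In the lowest cluster Creb5 stood at 17.9, 34.0 and 34.3 CPM in the 3 libraries, and in the highest at 1124, 946 and 1219 CPM.

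Elsewhere Creb5 was at 332 CPM in proliferating-like, 288 in cluster-5-like, 260 in RGC/PSC-like and 236 in microglia-like nuclei, and these neighbours in the order had overlapping intervals. It was lower in glial progenitor-like (126 CPM), astrocyte-like (66.8 CPM) and neuron-like nuclei (40.3 CPM, 50 UMIs). At equal depth, with each nucleus thinned to 1500 UMIs, 57.6% of oligodendrocyte-like nuclei (54.2 to 61.0) and 40.7% of NPC/OPC-like nuclei held a UMI of Creb5, against 7.01% of precursors and 5.25% of neuron-like nuclei (3.14 to 8.17). Without thinning these shares were 82.3%, 62.5%, 14.9% and 9.19%, at median depths of 5811, 3555.5, 4448 and 3310 UMIs. The share in precursors (5.64 to 8.58) overlapped that in neuron-like nuclei, the lowest class, and no class known to lack Creb5 was measured, so the part of free RNA in these low values was not tested. In the p300-ablated library taken alone the share in precursors was 11.4% (7.68 to 16.2), against 7.67% in control and 4.83% without CBP.

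Creb3l2 (chr6:37327255-37442146) was highest in the committed precursors, where Creb5 was low. It stood at 80.9, 101 and 81.9 CPM in NPC/OPC-like nuclei of the control, CBP-ablated and p300-ablated libraries, at 240, 284 and 224 CPM in committed precursor-like nuclei, and at 139, 167 and 145 CPM in oligodendrocyte-like nuclei. Precursors exceeded NPC/OPC-like nuclei by a log2 difference of 1.501 ± 0.06 (SD over 3 libraries), and oligodendrocyte-like nuclei were below precursors by −0.73 ± 0.09. The order of these classes was the same in every library, and both differences exceeded the spread over libraries. At the finer clustering Creb3l2 was at 227 CPM in the Arhgap24-led and 297 CPM in the Enpp6-rich precursor cluster. The latter was the cluster in which Creb5 was lowest. The other splits did not show the 2 genes in opposite order, with Creb3l2 at 143 and 184 CPM in the oligodendrocyte-like clusters of 603 and 1006 CPM of Creb5, and at 86.8 and 82.5 CPM in the NPC/OPC-like clusters of 506 and 309 CPM. RGC/PSC-like nuclei were second with 173 CPM, and neuron-like nuclei lowest with 25.005 CPM (17.0 to 35.5).

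Crtc3 (chr7:80586627-80688877) was highest in the radial and glial progenitor classes among the 10 named ones. At resolution 1.2 a further, ependymal-like cluster of 27 nuclei had 579 CPM. In RGC/PSC-like nuclei it stood at 276, 263 and 284 CPM and in glial progenitor-like nuclei at 178, 207 and 246 CPM, against 96.6, 93.8 and 115 CPM in NPC/OPC-like nuclei. The log2 differences from NPC/OPC-like nuclei were 1.44 ± 0.11 and 1.04 ± 0.14 (SD over 3 libraries). Neuron-like nuclei came next with 152 CPM, and the 7 remaining classes lay between 86.0 and 126 CPM. The plot of Creb5, Creb3l2 and Crtc3 by class shows the 3 patterns in each library.

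**Figure D4:**
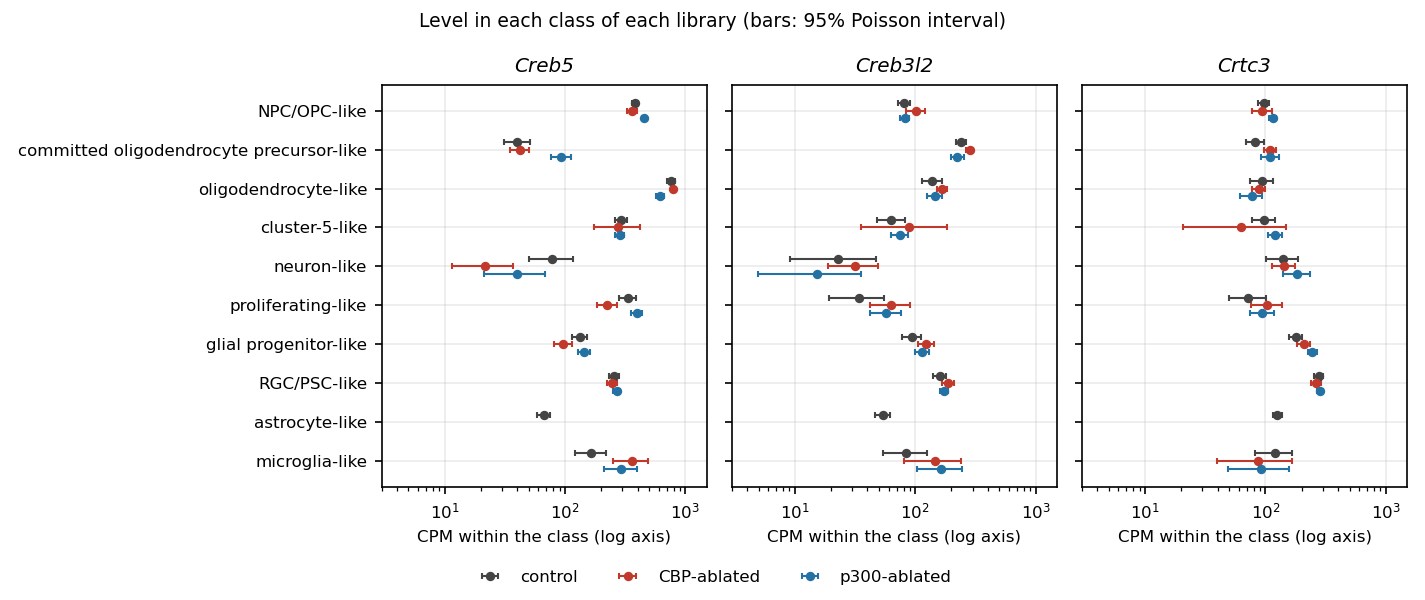
Level of Creb5, Creb3l2 and Crtc3 in each named class of each library, in CPM within the class on a log axis, with 95% Poisson intervals. In committed oligodendrocyte precursor-like nuclei Creb5 is at 40.1 to 93.4 CPM, where Creb3l2 is highest at 224 to 284 CPM, and Crtc3 is highest in RGC/PSC-like nuclei at 263 to 284 CPM. The astrocyte-like class has a point for control only.

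The other genes varied less, and their order is given among the 10 named classes. Of the unnamed clusters, 1 (580 nuclei) had 74.8 CPM of Crtc1. Another (481 nuclei) had 52.9 CPM of Crem and 81.1 CPM of Atf1. Crem was highest in astrocyte-like (52.0 CPM) and RGC/PSC-like nuclei (43.1 CPM) and lowest in committed precursor-like nuclei (20.5 CPM), with the RGC/PSC-like over NPC/OPC-like difference at a log2 value of 0.86 ± 0.06. Crtc1 was highest in neuron-like nuclei (72.6 CPM) and committed precursors (69.1 CPM) and lowest in oligodendrocyte-like nuclei (32.9 CPM), which were below the precursors by −0.995 ± 0.150 on the log2 scale. Atf1 was highest in microglia-like (81.2 CPM, 43 UMIs) and proliferating-like nuclei (69.9 CPM). Neighbouring classes in the order of Creb1, Crem, Atf1, Atf2 and Crtc2 had overlapping intervals throughout. Crtc2 lay between 4.49 and 9.24 CPM, with 59 UMIs or fewer in every class but NPC/OPC-like, and its order was not resolved at this depth.

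Within classes, ratios between libraries were given where a gene had at least 20 UMIs in a class. Creb3l2 was above 0 on the log2 scale in 9 of 9 classes in the CBP-ablated over the control library, from 0.23 in RGC/PSC-like to 0.89 in proliferating-like nuclei, with intervals above 0 in 3 classes: NPC/OPC-like (0.32), committed precursor-like (0.25) and glial progenitor-like (0.39). None of these 3 was past 1.5-fold. At the finer clustering the direction was not shared by all clusters. In the Enpp6-rich precursor cluster Creb3l2 was at 289 CPM without CBP against 342 CPM in control. In the NPC/OPC-like cluster with less Creb5 it was at 67.8 against 85.7 CPM, with 45 CBP-ablated nuclei. It was higher without CBP in the other clusters of the oligodendrocyte classes, as in the Arhgap24-led one (277 against 186 CPM). Without p300 Creb3l2 was above 0 in 7 of 8 classes, with an interval above 0 in 1. Oligodendrocyte markers also moved within classes. Their summed level (8 markers) in control, CBP-ablated and p300-ablated was 78.9, 324 and 96.8 CPM in NPC/OPC-like nuclei. In RGC/PSC-like nuclei it was 63.6, 282 and 79.1 CPM. The part of such RNA in the Creb3l2 ratios was not tested. Creb5 was above 0 in 3 of 9 classes without CBP and in 6 of 9 without p300. In committed precursor-like nuclei it was at 93.4 CPM in the p300-ablated against 40.1 CPM in the control library (log2 ratio 1.22, 0.77 to 1.68) and 42.1 CPM in the CBP-ablated library, and in oligodendrocyte-like nuclei it was lower without p300 (−0.29, −0.45 to −0.14). NPC/OPC markers moved with the first value: their summed level (8 markers, none at 0 in a whole library) in precursor-like nuclei was 12563 CPM in control, 9321 without CBP and 15845 without p300, and their part in it was not tested. The oligodendrocyte-like value was not shared by both finer clusters of that class. Creb5 was at 493 CPM without p300 against 574 CPM in control in the Mog-richer cluster (160 against 108 nuclei). In the other it was at 1219 against 1124 CPM (33 against 52 nuclei). The part of this mix of nuclei was not tested. Crtc3 was above 0 in 7 of 9 classes without p300, with intervals above 0 in NPC/OPC-like (0.25), committed precursor-like (0.41) and glial progenitor-like nuclei (0.47). Crtc1 without CBP was higher in RGC/PSC-like nuclei, with 54.0 against 31.5 CPM (0.78, 0.26 to 1.31). In these nuclei it was also higher than control without p300 (44.9 CPM, log2 ratio 0.51). Between the ablated libraries no class had a Crtc1 interval apart from 0.

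Over all classes in which a gene had at least 100 UMIs in both libraries together, the 9 genes gave 45 ratios without CBP, of which 1 was past 1.5-fold higher (the Crtc1 value above) and 0 lower. Over all genes and classes the same shares were 6.23% and 5.31%. Without p300, 2 of 50 ratios were past 1.5-fold higher, those of Creb5 in committed precursor-like and of Crem in glial progenitor-like nuclei (49.7 against 32.0 CPM), and 1 lower, that of Atf2 in neuron-like nuclei (131 against 198 CPM). The shares over all genes were 3.97% and 2.37%. Between the ablated libraries 1 of 51 was higher and 4 lower without CBP, against 6.16% and 7.27% over all genes. Of these 5 ratios, 3 came from the cluster-5-like class, with 20 nuclei in the CBP-ablated library.

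Other genes of the pathway were read from 7 lists. The 6 subunits of protein kinase A, the kinase that phosphorylates Creb1, were all within 1.5-fold in each comparison. The lists of CRTC regulators (salt-inducible kinases, calcineurin subunits and others) and of other kinases of the activating serine had 1 of 8 and 1 of 5 genes lower past 1.5-fold without CBP, namely Sik1 (6.19 to 3.45 CPM) and Rps6ka1 (13.0 to 7.61 CPM), and 1 higher, Camk4 (54.9 to 84.5 CPM), where 9.97% of all genes were lower and 7.9% higher. Rps6ka1 was also lower past 1.5-fold without p300 (8.63 CPM), 1 of 6 kinases, against 7.77% of all genes. Without the astrocyte-like class the control levels of Sik1, Rps6ka1 and Camk4 were 5.005, 10.2 and 64.3 CPM. Against these levels none of these genes was past 1.5-fold without CBP, nor was Rps6ka1 without p300. In the CBP-ablated over the p300-ablated library Sik1 was lower past 1.5-fold (3.45 against 5.56 CPM), 1 of 8 genes. Camk4 was just past 1.5-fold higher there (84.5 against 56.3 CPM), 1 of 6 genes. Over all genes 8.03% were lower and 8.26% higher in that comparison.

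Of 12 genes of cAMP synthesis and breakdown, 3 were past 1.5-fold higher and 5 lower without CBP (7.9% and 9.97% over all genes), and 1 higher and 2 lower without p300 (4.37% and 7.77%). In the CBP-ablated over the p300-ablated library 2 were higher and 4 lower (8.26% and 8.03% over all genes). Pde4b, a phosphodiesterase that breaks down cAMP, stood at 1297, 3264 and 1417 CPM. It was at 9894 CPM in oligodendrocyte-like and 2087 CPM in committed precursor-like nuclei, the classes with larger shares in the CBP-ablated library. The part of these shares in the Pde4b levels was not tested. The adenylyl cyclases Adcy8 (106 to 37.5 CPM) and Adcy2 (94.7 to 42.6 CPM) were lower without CBP. Adcy8 was highest in astrocyte-like nuclei (197 CPM), and without that class its control level was 77.7 CPM. Against that level Adcy8 stayed past 1.5-fold without CBP, but not without p300 (69.1 CPM). All 5 genes lower without CBP stayed past it against control without that class, among them Adcy2 (72.3 CPM in that control). Adcy7, the other gene lower without p300 (7.72 to 4.03 CPM), stayed past it as well (9.85 CPM in that control). Adcy7 was highest in microglia-like nuclei (308 CPM). Adcy1, the gene higher without p300 (34.9 CPM), was not past 1.5-fold against its control level without the astrocyte-like class (23.98 CPM). Of the genes higher without CBP, Pde4b stayed past 1.5-fold without that class (1581 CPM in control), but not all did.

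Of 13 related leucine zipper genes 11 had enough UMIs, and without CBP 0 were past 1.5-fold higher and 2 lower, Creb3l1 (7.54 to 1.57 CPM) and Atf5 (17.8 to 4.39 CPM), against 7.9% and 9.97% of all genes. Without p300 2 of 11 were lower, again Atf5 (5.99 CPM) and Creb3l1 (4.29 CPM), against 7.77% of all genes. In that comparison 1 was higher, Atf3, an immediate stress-response gene (3.801 to 10.2 CPM), against 4.37% of all genes. In the CBP-ablated over the p300-ablated library 1 of 11 was higher and 3 lower, against 8.26% and 8.03% of all genes. Atf5 was led by astrocyte-like nuclei (48.7 CPM), and its control level without them was 8.07 CPM. Creb3l1 was also highest there (15.8 CPM), with 4.92 CPM in control without that class. Against these levels both genes stayed past 1.5-fold without CBP, and neither did without p300.

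Of the 16 CREB target genes, 10 could be compared without CBP and 11 without p300. Without CBP 0 were past 1.5-fold higher and 2 lower, with a median log2 ratio of −0.40 against 0.06 over all genes, of which 7.9% were higher and 9.97% lower. The lower genes were Ppargc1a, a coactivator of mitochondrial biogenesis (182 to 55.4 CPM), and the neurotrophin gene Bdnf (9.07 to 3.06 CPM, with 5.81 CPM in control without the astrocyte-like class, where it was highest at 19.4 CPM). Without p300 5 were past 1.5-fold higher and 2 lower, with a median of 0.39 against −0.03 over all genes, of which 4.37% were higher and 7.77% lower. The immediate early genes Fosb (1.41 to 10.4 CPM), Egr1 (17.8 to 48.2 CPM) and Fos (24.1 to 57.7 CPM) had the largest values, so the higher side of the list was led by genes of this kind. In the CBP-ablated over the p300-ablated library, which does not use the control, 0 of 11 were past 1.5-fold higher and 7 lower. The median there was −0.76 against 0.10 over all genes, of which 8.26% were higher and 8.03% lower. With the 3 libraries together, Fos and Fosb were highest in glial progenitor-like nuclei (115 and 29.5 CPM). Egr1 was highest in NPC/OPC-like nuclei (42.5 CPM). In control, CBP-ablated and p300-ablated, Fosb had 23, 1 and 197 UMIs, Fos 393, 217 and 1089, and Egr1 291, 166 and 910. These class levels thus rest mostly on the p300-ablated library. Ppargc1a was highest in astrocyte-like nuclei (436 CPM), and without that class its control level was 102 CPM. Against that level Ppargc1a, which with Bdnf made up the 2 lower genes without p300, was no longer past 1.5-fold in the p300-ablated library (91.3 CPM). Bdnf stayed just past it there (3.87 CPM). Without CBP both genes stayed past 1.5-fold against control without that class. The plot of pathway lists shows each gene beside the range of all genes.

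**Figure D5:**
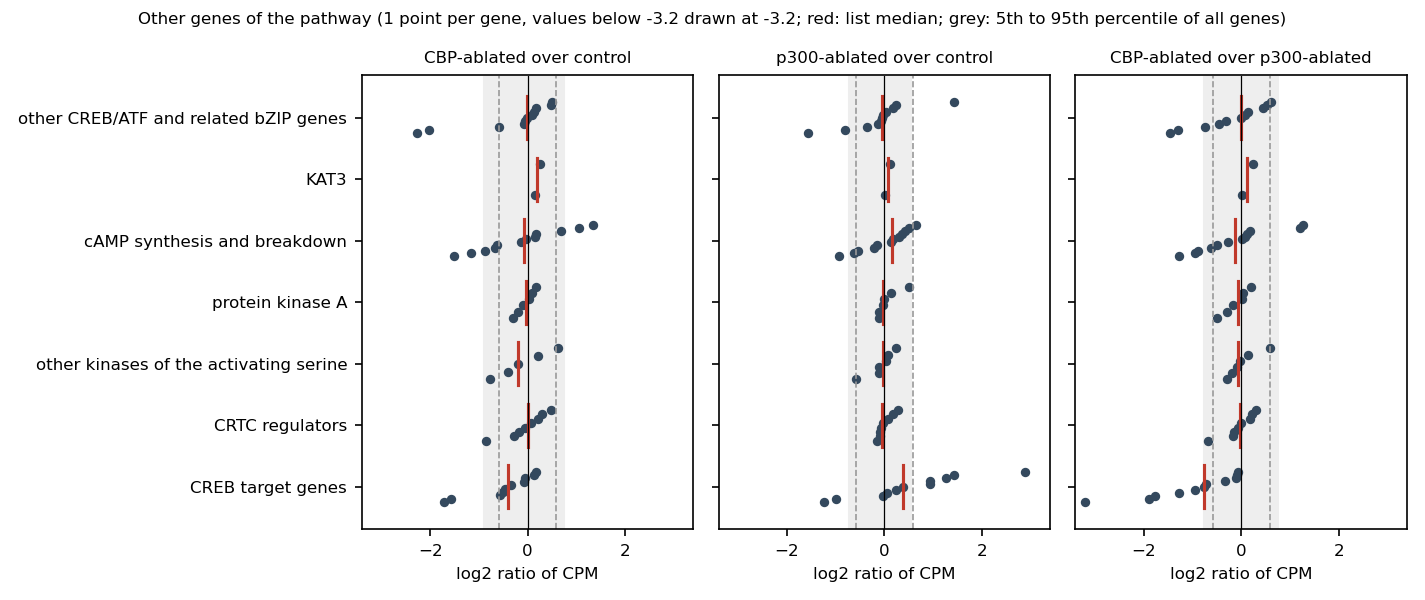
Log2 ratio of CPM between libraries for the genes of 7 pathway lists with at least 100 UMIs in both libraries together, 1 point per gene. The red line is the list median, dashed lines mark 1.5-fold, and the grey band spans the 5th to 95th percentile of all genes. CREB target genes have medians of −0.40 without CBP, 0.39 without p300 and −0.76 for CBP-ablated over p300-ablated. Protein kinase A subunits lie within the dashed lines. Fosb between the ablated libraries (1 against 197 UMIs) is drawn at the edge of its panel.

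The genes were also compared by the course of log2(CPM + 1) over 28 sums, each of 1 class in 1 library. The sums share libraries and depth, so the correlations are descriptions. Within the group the highest Pearson r was 0.57, between Crtc3 and Crem, and the lowest −0.60, between Crtc1 and Creb5, while Creb5 and Creb3l2 had an r of 0.25. Over 8521 genes, the 3 with the course most like that of Creb3l2 were Inppl1 (r = 0.90), Ctnna1 (0.87) and Zfp809 (0.87). For Creb5 they were Dusp16 (0.81), Rasa3 (0.80) and Tanc1 (0.75), and for Crtc3 Rnd3 (0.89), Mok (0.88) and Igfbp5 (0.88). Crem was closest to Aldh1l1 (0.81), an astrocyte marker, then to Lyrm1 (0.79) and Yap1 (0.79).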

How the data were processed

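UMI counts per gene and nucleus were read from the 3 deposited matrices, which per the labels the authors made with Cell Ranger 3.1 on GRCm38 (mm10), with FastQC 0.11.9 and Seurat 2.3.4 also named in the submitters' processing notes. The 10 genes and the gene lists were chosen with earlier results of these data known. Counts were summed per library and class and given as CPM, scaled to the total UMIs of the library or class, with exact Poisson intervals, and ratios with conditional binomial (Clopper-Pearson) intervals at the 95% level, which cover counting error only. With 1 library per condition no test was run. Median depths were 3219, 4016 and 3902.5 UMIs per nucleus (control, CBP-ablated, p300-ablated), and 3 UMIs in a library equal 0.184, 0.235 and 0.159 CPM.

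Nuclei were clustered with Seurat 5.3.0 (R 4.3.3) on 1617 dispersed genes, 20 principal components and resolution 0.6. A cluster was named when at least 60% of the markers of a list, and at least 3, were found in 10% of its nuclei and 2-fold above the rest. The naming limits were chosen with the clusters in view, and some lists come from marker genes the study drew from the same libraries. Doublets were scored with Scrublet in scanpy 1.11.5 (191, 73 and 173 nuclei called) and were kept, and were left out in an alternative. Sums and intervals used numpy 2.4.6, pandas 2.3.3 and scipy 1.17.1. The ratio intervals were tried on simulated Poisson counts at the depth of NPC/OPC-like nuclei. Such counts hold no spread between nuclei or libraries, so the trial checks the calculation only. From each pathway list the 3 genes with the largest ratio in each comparison could be named. The alternatives were other filters, depths, class weights, resolutions, variable genes, class assignment by marker score, and 10% free RNA subtracted.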

Additional observations from a re-analysis of the deposited data

Results flagged for a closer look

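For 3 of the genes, counting intervals of the ratio between libraries lay on opposite sides of 0 in different cell classes. The differences between classes were not tested, since each condition is 1 library. All values are log2 ratios of CPM within a class, and those of Creb5 in microglia-like and of Creb5 and Atf1 in neuron-like nuclei rest on fewer than 100 UMIs.

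Creb5 in the CBP-ablated over the control library was 1.11 in microglia-like nuclei, against −0.46 in glial progenitor-like, −0.56 in proliferating-like and −1.85 in neuron-like nuclei. The neuron-like value rests on 13 against 24 UMIs in the class in which Creb5 was lowest, and 2.34% of its CBP-ablated against 9.90% of its control nuclei were called doublets, whose part in it was not tested. In the p300-ablated over the control library Creb5 was 0.24 in NPC/OPC-like, 1.22 in committed oligodendrocyte precursor-like and 0.82 in microglia-like nuclei, and −0.29 in oligodendrocyte-like nuclei. In the CBP-ablated over the p300-ablated library it was 0.36 in oligodendrocyte-like nuclei, against −0.33 in NPC/OPC-like, −1.15 in committed oligodendrocyte precursor-like, −0.58 in glial progenitor-like and −0.81 in proliferating-like nuclei. The finer clusters of the oligodendrocyte-like class did not share these directions. In control, CBP-ablated and p300-ablated, Creb5 stood at 574, 676 and 493 CPM in the Mog-richer cluster and at 1124, 946 and 1219 CPM in the other.

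Atf1 in the p300-ablated over the control library was 0.50 in glial progenitor-like and −1.34 in neuron-like nuclei. Atf2 in the same comparison was 0.37 in oligodendrocyte-like and −0.59 in neuron-like nuclei.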

How the results depend on the processing

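No paired analysis was possible because each condition is 1 library. All values here are log2 ratios or differences unless given as counts. The Creb5 ratio of the CBP-ablated over the control library was 0.35 as the mean CPM of each nucleus, 0.34 thinned to 1500 UMIs, 0.15 without the astrocyte-like class, −0.090 with classes weighted as in control and −0.15 with 10% free RNA also subtracted. For p300-ablated over control it was 0.27, 0.13 and 0.089 under the last 3 of these. The Creb3l2 ratio without CBP was 0.53, 0.33 and 0.29 under the same 3, which leave 0 genes of the group past 1.5-fold. Thinning gave 2 genes past 1.5-fold without CBP, 1 without p300 and 1 between the ablated libraries, and the mean per nucleus and centring on the median gene gave 1 each without p300. With genes of at least 1 UMI in each library, the share of all genes past 1.5-fold was 31.8% without CBP, 27.0% without p300 and 28.4% between the ablated libraries.

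Between committed precursor-like and NPC/OPC-like nuclei, the Creb5 difference was −2.03 with classes by marker score and −4.00 with free RNA subtracted, and that of Creb3l2 was 1.42 with 2000 variable genes by vst and 1.65 with free RNA subtracted. The Creb5 difference of oligodendrocyte-like over precursor-like nuclei was 4.91, and the Crtc3 difference of RGC/PSC-like over NPC/OPC-like nuclei 1.58, with free RNA subtracted. The Crtc3 difference of glial progenitor-like over NPC/OPC-like nuclei was 0.89 by marker score. Of 216 values of whole-library ratios under the alternatives, 23 had another sign, in 9 of 27 ratios (Atf1 in all 3 comparisons, Crem in 2, and Creb1, Creb3l2, Creb5 and Crtc1 in 1 each), and of 1936 within-class values 100 did. In the 8 changes of sign of within-class ratios past 1.5-fold, all of ratios whose intervals held 0, classes by marker score gave −0.072 (Creb1, neuron-like, CBP-ablated over p300-ablated), 0.17 (Creb5, neuron-like, p300-ablated over control), −0.68 (Creb3l2, neuron-like, CBP-ablated over p300-ablated), −0.063 (Crtc1, cluster-5-like, CBP-ablated over p300-ablated) and 0.22 (Crtc3, cluster-5-like, CBP-ablated over control). With the genes of the group left out of clustering, chosen after seeing the data, the cluster-5-like class held 1225 nuclei in place of 727. Its ratios became 0.45 (Creb1) and 0.39 (Crtc3) for CBP-ablated over control and 0.19 (Crtc3) for CBP-ablated over p300-ablated. The cause was not tested. Alternatives with a second seed, vst genes or filters on class levels were also added after seeing the data. NPC/OPC-like and cluster-5-like classes did not form at resolution 0.3. The 20 CBP-ablated cluster-5-like nuclei limit any value of that class.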
